A study of Mus musculus with 16 samples.

Results

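The 7 genes described here, Hmgcs1, Idi1, Fdft1, Sqle, Lss, Insig1 and Srebf2, belong to the machinery by which a cell makes cholesterol and senses how much of it is present. They were chosen by symbol from a table of read counts of 37003 genes, and each symbol matched 1 row. The RNA came from mouse brain endothelial cells (bECs), the cells that line brain vessels and form the blood-brain barrier, sorted as DAPI-, CD45- and CD31+ and sequenced in 16 libraries, 4 in each of 4 groups. YT-iKO mice carried the tamoxifen-inducible Cre transgene Pdgfb-iCreER-eGFP, driven by a promoter active in endothelium, together with floxed alleles of Yap and Taz (Wwtr1), the transcriptional co-activators of the Hippo pathway. CTRL mice were littermates without the Cre transgene, and both genotypes received tamoxifen before surgery. Mice underwent middle cerebral artery occlusion (MCAo) of 30 minutes followed by reperfusion, or sham surgery, and cells were taken 72 hours later. Each library pooled several adult mice of either sex, so a library and not an animal is the unit of replication, and the groups differ in the Cre and eGFP transgene as well as in the deletion.

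Cholesterol is built from acetyl-CoA through mevalonate and squalene. HMGCS1 makes the precursor of mevalonate, IDI1 interconverts the isoprene building blocks, FDFT1 joins farnesyl units to squalene, SQLE oxidises squalene, and LSS closes the ring to give lanosterol. SREBP2, the product of Srebf2, is a membrane-bound transcription factor that is cleaved when sterols are scarce and then switches on the genes of this route. INSIG1 holds the SCAP-SREBP complex in the endoplasmic reticulum when sterols are plentiful, and its gene is itself a target of SREBP. Plasma lipoproteins hardly cross the blood-brain barrier, and the brain makes most of its own cholesterol. No member is an uptake receptor, so uptake is described through a list of uptake and transport genes, among 56 other sterol genes listed by role.

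The members lie on several chromosomes of GRCm38. Hmgcs1 spans chr13:119690379-119708260 and Idi1 chr13:8885501-8892451, both on the plus strand. Srebf2 (chr15:82147181-82205379), Sqle (chr15:59315077-59331192), Lss (chr10:76531588-76557138) and Insig1 (chr5:28071363-28078662) are also on the plus strand, whereas Fdft1 (chr14:63145150-63179578) is on the minus strand. Exons of Fdft1 overlap exons of Ctsb on the opposite strand, and exons of Hmgcs1, Idi1 and Lss overlap an antisense or unclassified transcript (Gm48342, Gm48574 and 4930483K19Rik). Whether the counting used strand is not given in the sources used here, so reads from such stretches cannot be told apart.

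Because SREBP2 and its partners NF-Y and Sp1 act at promoters of this route, the promoters were read for the letters of their usual sites. RefSeq promoters of GRCm38.p6, which run from 250 bases before to 50 bases after the annotated start, were at hand for 5 of the 7 members. The letters searched on both strands were TCACNCCAC (a sterol regulatory element), CCAAT (NF-Y) and GGGCGG (Sp1). TCACNCCAC occurred in 1.24% of the 32851 promoters and in 1 of the 5 member promoters, that of Hmgcs1, at positions -137 to -129. CCAAT occurred in 37.4% of all promoters and in 5 of 5 of the members, always on the strand opposite to the printed one, where it reads as ATTGG. The letters GGGCGG occurred in 35.7% of all promoters and in 5 of 5 of the members. None of these matches overlapped another. The Hmgcs1 promoter is shown whole because it holds the sterol element, and 60 bases of the others are shown around their ATTGG, with capitals marking the sterol element and each ATTGG. The stretches are chr13:119690101-119690400 for Hmgcs1, chr13:8885549-8885608 for Idi1, chr5:28071168-28071227 for Insig1, chr10:76531515-76531574 for Lss and chr15:82147106-82147165 for Srebf2, all read on the plus strand. A match of letters is a description of the sequence and not evidence of binding.
Hmgcs1: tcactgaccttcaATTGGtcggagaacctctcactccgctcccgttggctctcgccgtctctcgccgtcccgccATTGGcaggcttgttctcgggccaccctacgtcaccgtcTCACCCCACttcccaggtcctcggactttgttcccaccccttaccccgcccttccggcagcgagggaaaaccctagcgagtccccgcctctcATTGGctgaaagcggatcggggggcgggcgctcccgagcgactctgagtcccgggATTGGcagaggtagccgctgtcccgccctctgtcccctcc
Idi1: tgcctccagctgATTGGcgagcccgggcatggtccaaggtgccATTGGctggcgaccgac
Insig1: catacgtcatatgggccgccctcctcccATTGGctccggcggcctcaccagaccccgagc
Lss: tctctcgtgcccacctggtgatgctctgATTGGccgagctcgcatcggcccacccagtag
Srebf2: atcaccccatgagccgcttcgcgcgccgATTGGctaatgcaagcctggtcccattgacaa

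Total counts ranged from 11418262 to 23074547 per library. Values are given as CPM, read counts scaled to a common library size, with library sizes adjusted by the trimmed mean of M values (TMM), whose factors ranged from 0.743 to 1.40. The labels were checked on the deleted genes. Yap1 was at 112 ± 0.511 CPM in CTRL sham and 49.3 ± 9.70 in YT-iKO sham (mean ± SD, n = 4), and Wwtr1 at 265 ± 9.66 and 72.1 ± 20.9. Both were called lower in YT-iKO after sham (edgeR adjusted p = 0.0371 and 0.00381) and after MCAo (edgeR adjusted p = 0.0478 and 0.00356). The 10 endothelial markers summed to between 10219 and 23286 CPM per library, 8 markers of pericytes and smooth muscle to between 476 and 1422 CPM, and 7 markers of microglia and macrophages to between 7.42 and 29.5 CPM. Reads on 345 genes of olfactory and similar receptors, which endothelium is not known to use, summed to between 94.97 and 389 CPM and differed between libraries of the same group.

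All 7 members were measured in every library. Per kilobase of annotated exon, which allows levels to be compared between genes, Srebf2 stood first with 16.2 ± 3.38 CPM per kb (mean ± SD over 16 libraries). It was followed by Insig1 with 7.92 ± 1.64 and Hmgcs1 with 6.58 ± 1.57 CPM per kb. Fdft1 came next at 3.51 ± 0.699 CPM per kb, then Sqle at 2.14 ± 0.309, Idi1 at 1.61 ± 0.383 and Lss at 1.59 ± 0.145. Srebf2 exceeded Insig1, Hmgcs1 exceeded Fdft1 and Fdft1 exceeded Sqle in 16 of 16 libraries. Insig1 exceeded Hmgcs1 in 14 and Sqle exceeded Idi1 in 15 of them, whereas Idi1 exceeded Lss in 8, so the last pair has no order beyond its spread. The regulators Srebf2 and Insig1 thus had higher means per length than the 5 enzymes, with Srebf2 at percentile 92.7 and Lss at percentile 58.4 of the genes tested. Exon length counts every annotated isoform, which lowers the value of genes such as Lss whose exons add up to 10.8 kb.

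Among the enzymes, Hmgcs1 carried the most reads. In CTRL its levels were 34.9, 38.3, 28.5 and 38.5 CPM after sham and 41.0, 24.9, 22.1 and 34.4 CPM after MCAo. In YT-iKO they were 35.1, 25.8, 17.3 and 28.6 CPM after sham and 33.5, 20.6, 23.8 and 36.3 CPM after MCAo. The 4 groups overlapped, the lowest library was YT-iKO sham replicate 3, and the highest was CTRL MCAo replicate 1.

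Idi1 had the fewest reads of the 7. Its CTRL levels were 8.24, 7.12, 5.29 and 6.37 CPM after sham and 7.25, 5.44, 4.27 and 5.04 CPM after MCAo. In YT-iKO the levels were 5.25, 7.25, 5.05 and 6.59 CPM after sham and 3.96, 3.82, 4.403 and 4.67 CPM after MCAo. All 4 YT-iKO MCAo libraries were below all 4 YT-iKO sham libraries, and every other pair of groups compared overlapped.

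Fdft1, at the branch where the pathway commits to sterols, read 16.3, 18.5, 15.5 and 17.0 CPM in CTRL sham and 21.4, 13.1, 12.4 and 16.2 CPM in CTRL MCAo. YT-iKO libraries gave 15.04, 13.8, 10.6 and 14.7 CPM after sham and 13.8, 11.3, 10.7 and 17.4 CPM after MCAo. Here the 2 sham groups did not overlap, YT-iKO being lower, while the MCAo groups did.

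Sqle, the next enzyme, was at 14.9, 14.2, 10.5 and 14.0 CPM in CTRL sham and at 13.3, 11.9, 9.83 and 13.7 CPM in CTRL MCAo. Its YT-iKO values were 11.3, 10.2, 9.72 and 12.6 CPM after sham and 11.4, 10.3, 10.1 and 11.97 CPM after MCAo. The groups overlapped throughout.

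Lss closes the sterol ring. Over the 16 libraries it had the lowest coefficient of variation of the 7 on this scale (9.08%), but with TMM factors from abundant genes Idi1 alone had a higher one than Lss (21.8% and 18.1%). CTRL libraries held 19.5, 19.1, 19.4 and 15.5 CPM after sham and 15.7, 14.7, 17.8 and 18.6 CPM after MCAo. YT-iKO libraries held 18.3, 16.6, 15.4 and 15.9 CPM after sham and 18.4, 17.5, 16.1 and 16.6 CPM after MCAo. In CTRL sham, replicate 4 stood below the other 3, and all groups compared overlapped.

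Insig1, the sterol sensor that restrains SREBP2, was at 29.6, 34.1, 25.8 and 27.1 CPM in CTRL sham and 27.3, 23.8, 18.5 and 31.5 CPM in CTRL MCAo. In YT-iKO it was at 27.7, 21.5, 17.3 and 23.7 CPM after sham and 22.3, 17.9, 17.7 and 26.2 CPM after MCAo. Srebf2 itself was at 148, 144, 116 and 142 CPM in CTRL sham and 129, 101.4, 92.0 and 135 CPM in CTRL MCAo. Its YT-iKO levels were 130, 115, 75.0 and 108 CPM after sham and 105, 77.5, 93.7 and 147 CPM after MCAo. Both genes overlapped between all groups compared, and YT-iKO sham replicate 3 was the lowest library for each.

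**Figure D1:**
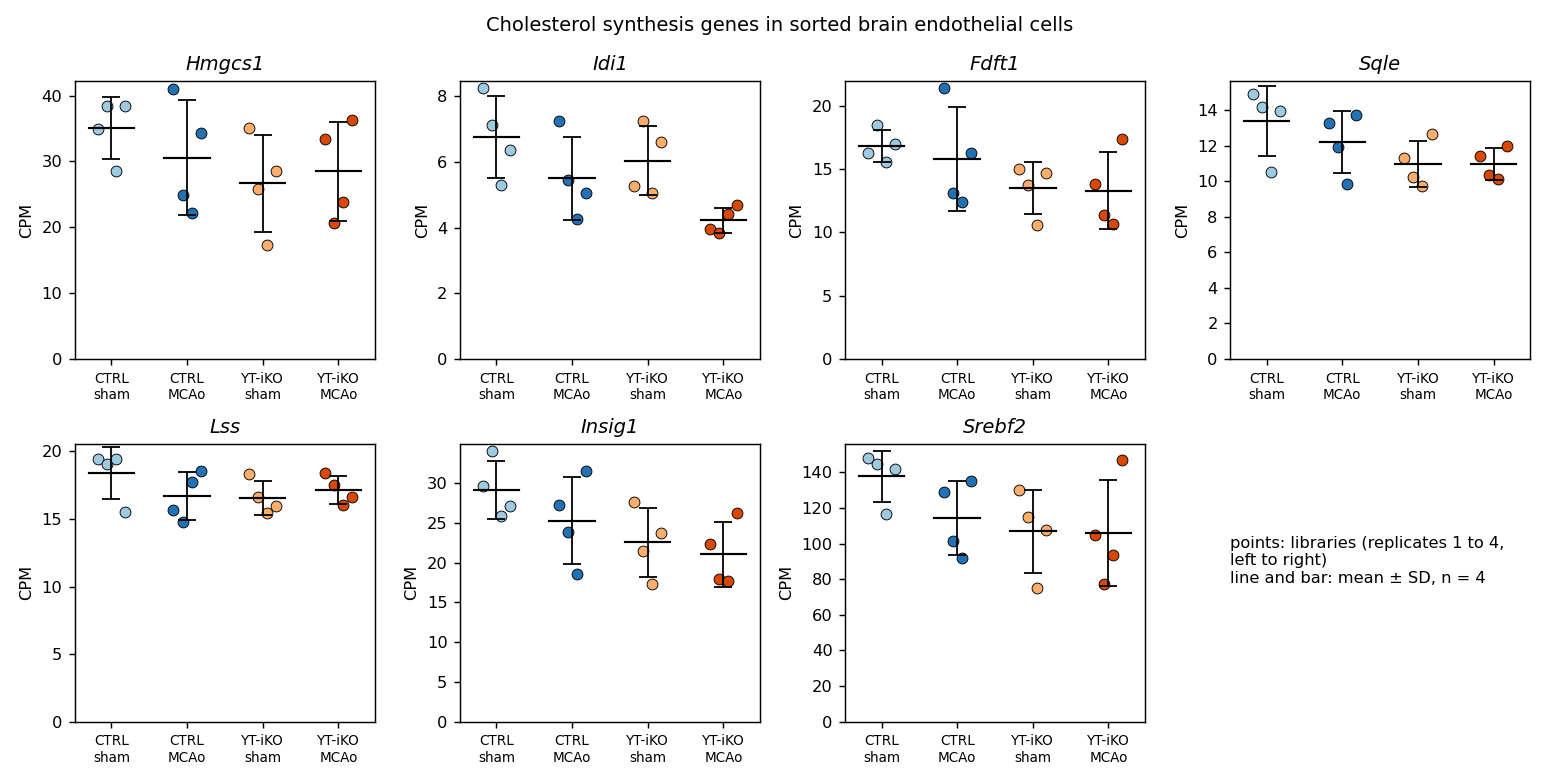
Level of each of the 7 members in CPM (vertical axes, from 0) in the 16 libraries, by group. Points are libraries, lines and bars the mean ± SD of 4 libraries. The groups overlap in all panels except Fdft1 between the 2 sham groups and Idi1 in YT-iKO MCAo, which lies below both sham groups.

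The first question was whether loss of YAP and TAZ changed these genes in bECs of sham-operated mice. All 7 members had lower fitted values in YT-iKO, by log2 fold changes between -0.39 and -0.15, but none was called: 0 of 7 passed an adjusted p of 0.1 in edgeR's quasi-likelihood test and 0 of 7 had an unadjusted p under 0.05, where 0.0965% of the 31085 genes tested were called. DESeq2 called 0 of 7 as well, where it called 0.176% of all genes. The synthesis enzymes stood at -0.39 ± 0.24 (log2 fold change ± SE) for Hmgcs1, -0.16 ± 0.24 for Idi1, -0.32 ± 0.21 for Fdft1, -0.29 ± 0.18 for Sqle and -0.15 ± 0.16 for Lss. The regulators stood at -0.37 ± 0.20 for Insig1 and -0.37 ± 0.23 for Srebf2. Each gene had an edgeR adjusted p of 0.990, and the 95% confidence intervals of the 7 folds together reached from 0.538 to 1.26. Groups did not overlap for 1 of 7 members, Fdft1, against 3.85% of all genes tested. In the exact permutation test of log2(CPM + 1), two-sided and with 0.0286 as the smallest possible p, Fdft1 reached p = 0.0286, Srebf2 p = 0.0571, Insig1 and Sqle p = 0.0857, Hmgcs1 p = 0.143, Lss p = 0.200 and Idi1 p = 0.457, before any correction over these 28 tests of members.

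Summed marker levels moved in the same comparison. The 10 endothelial markers averaged 19768 ± 705 CPM in CTRL sham and 15363 ± 3339 CPM in YT-iKO sham (SD, n = 4), a log2 ratio of -0.36. That ratio was -0.37 for the 8 markers of pericytes and smooth muscle and -0.45 for the 7 astrocyte markers. It was 0.53 for neurons, 0.41 for monocytes and neutrophils, 0.29 for microglia and macrophages and 0.26 for oligodendrocytes. The highest YT-iKO sham library raised these means above their medians. There the neuronal sums had a median of 17.6 and a maximum of 36.3 CPM (median in CTRL sham 14.0). For monocytes and neutrophils these values were 9.05 and 17.4 CPM (8.20). They were 16.2 and 29.5 CPM for microglia and macrophages (12.6) and 30.3 and 40.4 CPM for oligodendrocytes (26.2). Single genes carried some of these sums. Gja1 went from 62.7 to 38.2 CPM among the astrocyte markers, of which 3 of 7, Gfap, Aqp4 and Aldh1l1, had higher means in YT-iKO. Rgs5 went from 515 to 397 CPM among the pericyte and smooth muscle markers, of which 3 of 8, Myh11, Acta2 and Tagln, had higher means. Their part in the members' values was not tested.

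The common direction has to be read beside the scaling of the libraries. The median of the members was -0.32 and that of the 56 other sterol genes -0.22. It was 0.11 for all genes tested and -0.13 for the genes that averaged 10 CPM or more. When TMM factors were taken from those abundant genes alone, the median of all genes moved by over 0.1 to 0.30, the members' median was -0.17 against 0.01 for the abundant genes, and Lss changed sign to 0.01. Relative to the abundant genes the members' median was thus -0.19 on the one scale and -0.18 on the other. On the second scale Fdft1 overlapped between the groups (exact permutation p = 0.114).

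YT-iKO sham replicate 3 held the most receptor reads of its group (384 CPM) and was the lowest of its group for 7 of 7 members. With factors from the abundant genes it was the lowest for 2 of 7. Without this library the members' median was -0.22 in YT-iKO against CTRL after sham, with values from -0.26 to -0.08. In CTRL MCAo, replicate 3 likewise held the most receptor reads (310 CPM) and was the lowest for 6 of 7 members, or for 1 of 7 on the other scale. In the remaining groups the library with the most receptor reads was the lowest for fewer members, 0 of 7 in CTRL sham (replicate 2, 231 CPM) and 3 of 7 in YT-iKO MCAo (replicate 2, 389 CPM), and for 0 of 7 in both on the other scale. Across the 16 libraries the mean of the 7 members, each centred on its own mean, ran from -0.39 to 0.32 on the log2 scale with the main factors and from -0.30 to 0.23 with factors from the abundant genes. With this background as a covariate the members' median was -0.27 in the sham comparison and 0 of 7 were called.

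**Figure D2:**
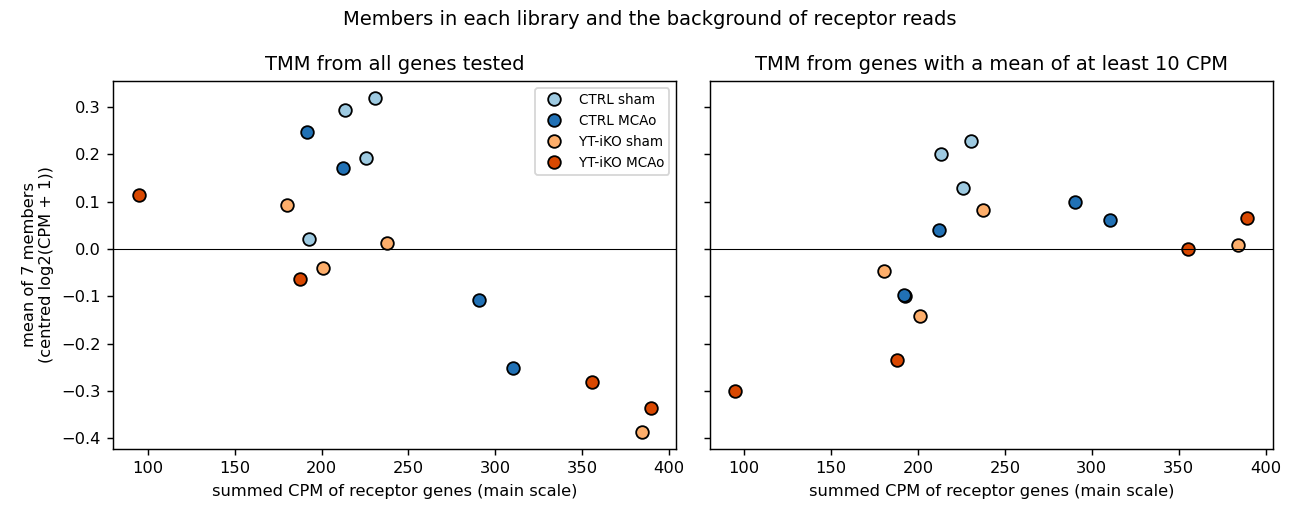
Mean of the 7 members in each library (vertical axis, centred log2(CPM + 1)) against the summed CPM of receptor genes (horizontal axis), with TMM factors from all genes tested on the left and from genes that averaged 10 CPM or more on the right. On the left the libraries with over 280 CPM of receptor reads have the lowest means, down to -0.39, whereas on the right the lowest mean, -0.30, belongs to the library with the fewest receptor reads.

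After MCAo, the same comparison of genotypes again gave 0 of 7 members called and 0 of 7 with an unadjusted p under 0.05, where 0.0708% of genes were called by edgeR. DESeq2 called 0 of 7 members and 0.211% of all genes. Idi1 had the most negative value, -0.38 ± 0.24, followed by Insig1 with -0.26 ± 0.20 and Fdft1 with -0.25 ± 0.21. Sqle stood at -0.15 ± 0.18, Srebf2 at -0.11 ± 0.23, Hmgcs1 at -0.10 ± 0.24 and Lss at 0.04 ± 0.16. Every edgeR adjusted p was 0.99999, and the 95% confidence intervals of the folds reached from 0.540 to 1.32. In 0 of 7 members did the groups separate without overlap, against 0.981% of all genes. The members' median was -0.15 beside 0.03 for all genes tested and 0.01 for the abundant genes.

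For stroke in CTRL mice, too, no member passed the test. All 7 values were negative, 0 of 7 were called by edgeR or DESeq2 and 0 of 7 had an unadjusted p under 0.05, whereas 0.216% of genes were called by edgeR and 0.549% by DESeq2 in this comparison. The fitted changes were -0.30 ± 0.24 for Idi1, -0.27 ± 0.23 for Srebf2, -0.21 ± 0.20 for Insig1, -0.20 ± 0.24 for Hmgcs1, -0.14 ± 0.16 for Lss, -0.14 ± 0.18 for Sqle and -0.09 ± 0.21 for Fdft1, each with an edgeR adjusted p of 0.9995. Folds within the 95% confidence intervals ran from 0.575 to 1.26. No member's groups were free of overlap (0 of 7, against 4.14% of all genes). The median was -0.20, beside 0.07 for all genes tested and -0.09 for the abundant genes. One alternative made calls here: limma-voom with sample quality weights called 2 of 7, Hmgcs1 (-0.43, limma adjusted p = 0.0644) and Srebf2 (-0.40, limma adjusted p = 0.0511), while it called 7538 genes in all, or 24.2%. In that fit the median of the abundant genes was -0.28 and that of the members -0.32, a difference of -0.04.

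In YT-iKO mice, MCAo against sham also gave 0 of 7 members called by edgeR or DESeq2, where edgeR called 0.318% and DESeq2 0.646% of all genes. Idi1, the isomerase, was the 1 member with an unadjusted p under 0.05. Its mean was 6.04 ± 1.06 CPM after sham and 4.22 ± 0.393 CPM after MCAo (SD, n = 4). This was a log2 fold change of -0.52 ± 0.24 (edgeR adjusted p = 0.9999) with a 95% confidence interval of the fold from 0.493 to 0.990. It was also the 1 member of 7 whose groups did not overlap, against 1.28% of all genes, and its exact permutation p was the smallest possible, 0.0286. With factors from the abundant genes the groups overlapped and that p was 0.0857. The other members stood at 0.10 ± 0.24 for Hmgcs1, 0.05 ± 0.16 for Lss, -0.10 ± 0.20 for Insig1, -0.02 ± 0.21 for Fdft1, -0.01 ± 0.23 for Srebf2 and -0.0022 ± 0.18 for Sqle. Their median, Idi1 included, was -0.01, beside -0.02 for all genes and 0.05 for the abundant genes.

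Whether the response to MCAo differed between the genotypes was tested as an interaction. edgeR called 0 of 7 members, as it did 0 of 31085 genes (0%), with 116 genes and 0 of 7 members at an unadjusted p under 0.05, and DESeq2 called 0 of 7. Values ran from -0.22 ± 0.34 for Idi1 to 0.29 ± 0.34 for Hmgcs1, each with an edgeR adjusted p of 0.9999. The 95% confidence intervals of the ratio of folds reached from 0.526 to 2.00, and ratios within that range were not excluded.

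**Figure D3:**
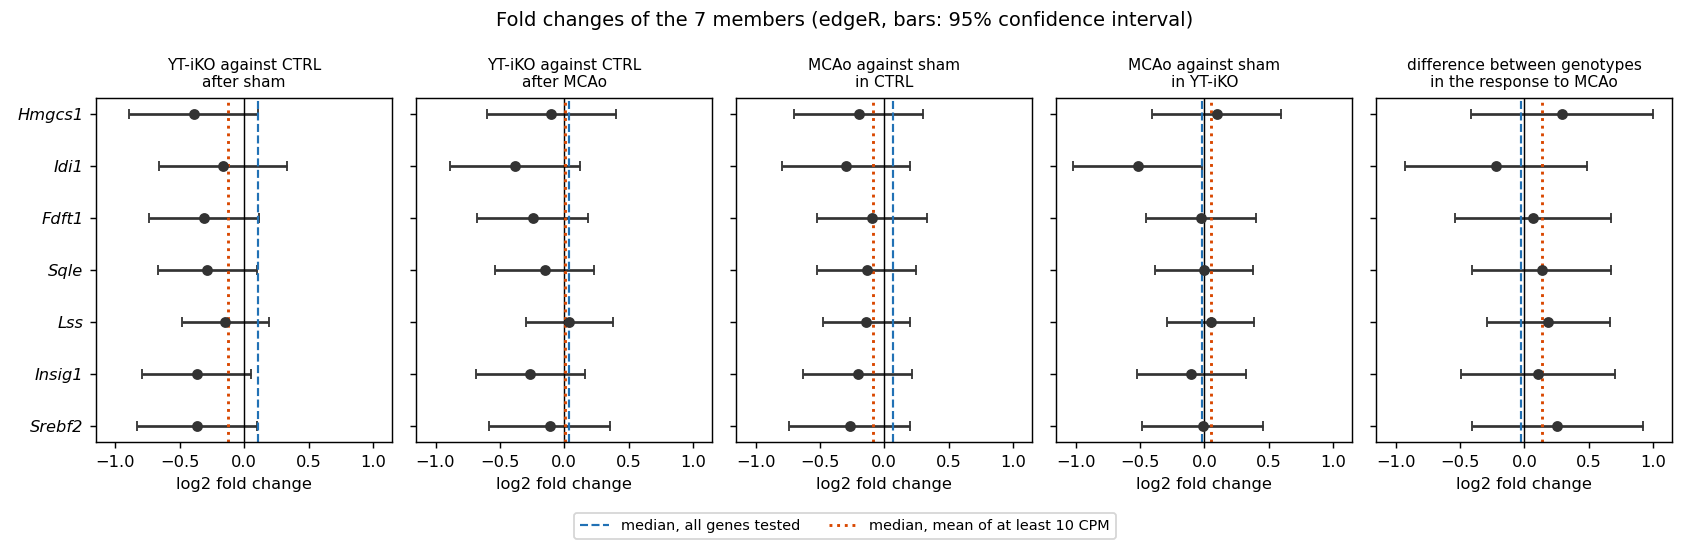
Log2 fold change (horizontal axes) of each member in the 5 comparisons, with 95% confidence intervals from edgeR. Dashed lines mark the median of all genes tested and dotted lines the median of genes that averaged 10 CPM or more. Each interval holds 0 except that of Idi1 for MCAo against sham in YT-iKO, which ends just below it.

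The other enzymes of the route were taken in the order of the pathway. Of 7 genes of the mevalonate arm, edgeR and DESeq2 called 0 in each of the 5 comparisons, with 1 at an unadjusted edgeR p under 0.05 for MCAo against sham in each genotype. Pmvk was called by limma-voom in CTRL (-0.50, limma adjusted p = 0.0455) and YT-iKO (-0.62, limma adjusted p = 0.0598). In those fits the medians of the abundant genes were -0.28 and -0.31. Acat2 was called in CTRL with the receptor background as a covariate (edgeR adjusted p = 0.0590). Among the 7 genes the highest edgeR value for MCAo against sham belonged in both genotypes to Acat2, an acetyl-CoA acetyltransferase (0.63 ± 0.30 in CTRL and 0.70 ± 0.30 in YT-iKO). The lowest belonged to Fdps, the farnesyl diphosphate synthase, in CTRL (-0.36 ± 0.33) and to Pmvk, phosphomevalonate kinase, in YT-iKO (-0.10 ± 0.23).

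Of 10 genes that turn lanosterol into cholesterol, edgeR and DESeq2 called 0 in each comparison, with 2 at an unadjusted edgeR p under 0.05 for the genotypes after sham and 1 for MCAo against sham in CTRL, where limma-voom called 5 of 10 beside its 24.2% of all genes. In edgeR 10 of 10 had negative values for YT-iKO against CTRL after sham (median -0.22) and for MCAo against sham in CTRL (median -0.23). The sign after sham was not particular to them. There 52 of the 56 other sterol genes were negative (median -0.22), including 9 of 9 regulators of SREBP and 8 of 8 fatty acid genes. For MCAo against sham in CTRL 30 of the 56 were negative (median -0.02). Among the 10 genes Ebp, a sterol isomerase, had the highest value for MCAo against sham in both genotypes, with -0.02 ± 0.21 in CTRL and 0.20 ± 0.21 in YT-iKO.

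Among 9 regulators of SREBP, edgeR and DESeq2 called 0 in each comparison, and 0 had an unadjusted edgeR p under 0.05. Scap, the escort of SREBP2, was at 42.0 ± 3.79 CPM in CTRL sham and 36.9 ± 5.86 in YT-iKO sham, and its values for MCAo against sham were -0.04 ± 0.23 in CTRL and 0.16 ± 0.23 in YT-iKO. Insig2, the paralogue of Insig1, was at 17.7 ± 1.48 and 14.9 ± 3.92 CPM in the sham groups and gave -0.03 ± 0.22 and 0.33 ± 0.22, the highest value of the list in YT-iKO. Srebf1, whose product drives fatty acid synthesis, was at 67.4 ± 5.52 and 58.9 ± 10.3 CPM in the sham groups and gave 0.10 ± 0.23, the highest of the list in CTRL, and 0.30 ± 0.23. Its sham and MCAo groups overlapped in both genotypes, but with factors from abundant genes those of YT-iKO did not. Mbtps2, the protease that makes the second cut in SREBP, was lowest with -0.22 ± 0.20 in CTRL, where limma-voom called it (-0.43, limma adjusted p = 0.0489), and -0.02 ± 0.20 in YT-iKO.

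Of 14 genes of uptake and intracellular transport, edgeR called 0 in each comparison, with 2 at an unadjusted p under 0.05 for MCAo against sham in each genotype and 1 for the genotypes after MCAo. DESeq2 called 1, Gramd1b in CTRL, and limma-voom called 8 in CTRL and 3 in YT-iKO, where it called 24.2% and 18.1% of all genes. Gramd1b, a sterol carrier between membranes, had the highest value after MCAo in CTRL (0.85 ± 0.24, edgeR adjusted p = 0.356) and Lrp8, a receptor for apolipoprotein E, the lowest (-0.47 ± 0.25). In YT-iKO the highest was Lipa, the lysosomal lipase that frees cholesterol (0.72 ± 0.30), and the lowest Vldlr, the very-low-density lipoprotein receptor (-0.49 ± 0.52), which had few reads. Gramd1b passed in CTRL by DESeq2 (adjusted p = 0.0606), in the fit of the 2 groups alone (edgeR adjusted p = 0.0159), by limma-voom (limma adjusted p = 0.00365), with the receptor background as a covariate (edgeR adjusted p = 0.0197) and without CTRL sham replicate 4 (edgeR adjusted p = 0.0184). In YT-iKO limma-voom called Gramd1b as well (0.70, limma adjusted p = 0.0655). Lipa passed in both genotypes with factors from abundant genes (edgeR adjusted p = 0.0423 and 0.0957) and with the covariate (edgeR adjusted p = 0.00663 and 0.0813), and in CTRL in the fit of the 2 groups alone (edgeR adjusted p = 0.0395).

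Ch25h was the 1 gene of the 56 that edgeR called with stroke in each genotype. It encodes cholesterol 25-hydroxylase, which makes an oxysterol that blocks SREBP processing and activates the liver X receptors. It held 3.89, 2.05, 2.18 and 3.44 CPM in CTRL sham and 74.2, 26.0, 13.2 and 34.2 CPM in CTRL MCAo. In YT-iKO it held 4.00, 1.91, 2.46 and 1.12 CPM after sham and 45.1, 11.7, 17.1 and 77.3 CPM after MCAo. Every MCAo library lay above every sham library in both genotypes, although the MCAo libraries differed among themselves several fold. Ch25h rose 12.7-fold in CTRL (log2 fold change 3.67 ± 0.56, 95% confidence interval of the fold 5.69 to 28.4, edgeR adjusted p = 0.00292). In YT-iKO it rose 15.7-fold (3.97 ± 0.57, 6.96 to 35.4, edgeR adjusted p = 0.00161). The difference between the genotypes in this response was 0.30 ± 0.74 (edgeR adjusted p = 0.9999), and between the genotypes Ch25h gave -0.27 ± 0.56 after sham and 0.04 ± 0.48 after MCAo. Ch25h was called in both genotypes under each alternative tried, with the highest adjusted p 0.0560 when only the 2 YT-iKO groups were fitted.

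Macrophages, which carry CD45, also make Ch25h. The sort took CD45- cells, but reads of Ptprc, the gene of CD45, were present. Its means were 4.27 CPM in CTRL sham and 6.35 CPM in CTRL MCAo, with ranges of 3.25 to 5.36 and 4.22 to 9.92 CPM. In YT-iKO the Ptprc means were 5.88 CPM after sham and 6.04 CPM after MCAo. Markers of such cells are given beside Ch25h. The 7 markers of microglia and macrophages summed to 11.6 to 24.4 CPM in CTRL sham and 8.98 to 19.1 CPM in CTRL MCAo, and to 12.8 to 29.5 CPM in YT-iKO sham and 7.42 to 27.3 CPM in YT-iKO MCAo. They overlapped between sham and MCAo, and P2ry12 and Tmem119, which define microglia, had group means of at most 1.29 CPM. The 5 markers of monocytes and neutrophils summed to 6.24 to 9.32 CPM in CTRL sham and 6.74 to 17.8 CPM in CTRL MCAo, and to 6.86 to 17.4 and 1.37 to 17.9 CPM in YT-iKO. In a bulk sample, fewer cells of a type and less RNA per cell cannot be told apart. The part of such cells in the Ch25h values was not tested. An exon of Ch25h overlaps Gm26902, a transcript on the opposite strand.

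Of the other 7 genes of esterification and efflux, edgeR called 0 in each comparison, whereas DESeq2 called Abca1 in both genotypes. Of all 8 genes of this role, Ch25h included, 3 had an unadjusted edgeR p under 0.05 for MCAo against sham in CTRL. In YT-iKO 5 of 8 had such a p, and for the genotypes after sham 1 of 8. Values for MCAo against sham were positive for 6 of 8 in CTRL and 8 of 8 in YT-iKO. Over the 56 other sterol genes, these 8 included, 26 were positive in CTRL and 38 in YT-iKO. Abca1, the cholesterol exporter that liver X receptors switch on, was singled out after its values were seen. Its mean was 169 ± 40.3 CPM in CTRL sham and 354 ± 158 in CTRL MCAo (1.06 ± 0.34, edgeR adjusted p = 0.627), and its YT-iKO mean was 164 ± 22.5 CPM after sham and 442 ± 224 CPM after MCAo (1.43 ± 0.34, edgeR adjusted p = 0.116). In YT-iKO the Abca1 groups did not overlap, and in CTRL they did, but with factors from abundant genes they did not overlap in either genotype. The call on Abca1 depended on the setting. DESeq2 gave an adjusted p of 0.0838 in CTRL and 0.00226 in YT-iKO, and edgeR with factors from abundant genes an adjusted p of 0.0134 and 0.00324. It was also called in both genotypes with the receptor covariate, in CTRL by limma-voom and in the fit of the 2 groups alone, and in YT-iKO with RLE factors, the stricter CPM filter and the replicate block (edgeR adjusted p = 0.0608). In YT-iKO edgeR called it too without CTRL MCAo replicate 1 or 3 or without YT-iKO MCAo replicate 2 or 3, with adjusted p from 0.0196 to 0.0652. The lowest values for MCAo against sham were those of Apoe, which encodes the main apolipoprotein of the brain, in CTRL (-0.08 ± 0.27) and of Nr1h2, a liver X receptor, in YT-iKO (0.04 ± 0.24). Nr1h3 was called in CTRL by limma-voom (limma adjusted p = 0.0624) and with the receptor covariate (edgeR adjusted p = 0.0681). In YT-iKO Abcg1 was called with factors from abundant genes and with the covariate (edgeR adjusted p = 0.0339 and 0.0450). Nceh1 was called there with factors from abundant genes (edgeR adjusted p = 0.0806), and Nr1h2 by limma-voom (-0.49, limma adjusted p = 0.0656). In that limma-voom fit 18.1% of all genes were called, and the median of the abundant genes was -0.31.

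Among 8 fatty acid genes that SREBPs share, edgeR called 0 in each comparison, with 2 at an unadjusted p under 0.05 for the genotypes after sham, 1 for MCAo against sham in CTRL and 3 in YT-iKO. DESeq2 called Elovl6 in both genotypes and Scd1 in YT-iKO. Elovl6, a fatty acid elongase, had the highest value after MCAo in CTRL (0.90 ± 0.28, edgeR adjusted p = 0.566), and Scd1, the stearoyl-CoA desaturase, in YT-iKO (1.18 ± 0.28, edgeR adjusted p = 0.120). Fasn, the fatty acid synthase, was lowest in both, with -0.27 ± 0.21 and -0.01 ± 0.21. DESeq2 gave Elovl6 an adjusted p of 0.0900 in CTRL and 0.0595 in YT-iKO, and gave Scd1 0.0141 in YT-iKO. Elovl6 was also called in both genotypes by limma-voom (limma adjusted p = 0.0308 and 0.0368) and with the receptor covariate (edgeR adjusted p = 0.0281 and 0.0223). In the fit of the 2 groups alone Elovl6 was called in CTRL (edgeR adjusted p = 0.0733). edgeR called Scd1 in YT-iKO with RLE factors (adjusted p = 0.0987), the replicate block (adjusted p = 0.0479) and factors from abundant genes (adjusted p = 0.0150), and without CTRL MCAo replicate 1, YT-iKO MCAo replicate 2 or 3 or YT-iKO sham replicate 4 (adjusted p from 0.0421 to 0.0985). Scd1 was also called there with the stricter CPM filter and the receptor covariate (edgeR adjusted p = 0.0565 and 0.00202) and by limma-voom (limma adjusted p = 0.0677). Scd2 was called in YT-iKO with the covariate and with factors from abundant genes (edgeR adjusted p = 0.0196 and 0.0198). In CTRL limma-voom called Acaca and Fads2 (limma adjusted p = 0.0861 and 0.0902).

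Over all 56 other sterol genes, edgeR called 1 (1.79%) in each genotype for MCAo against sham and DESeq2 called 4 (7.14%) in each. Of all genes, edgeR called 0.216% in CTRL and 0.318% in YT-iKO, and DESeq2 0.549% and 0.646%. An unadjusted p under 0.05 was found for 8 of the 56 in CTRL and 11 in YT-iKO, where 3.5% and 3.01% of all genes had such a p. The median of the 56 was -0.02 in CTRL and 0.13 in YT-iKO. In the remaining 3 comparisons edgeR and DESeq2 called 0 of 56, with 5 at an unadjusted p under 0.05 after sham, 1 after MCAo and 0 for the interaction, where 2.16%, 1.49% and 0.373% of all genes had such a p. With the receptor background as a covariate edgeR called Stard4, a sterol carrier, for the genotypes after MCAo (-0.53, adjusted p = 0.0861).

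**Figure D4:**
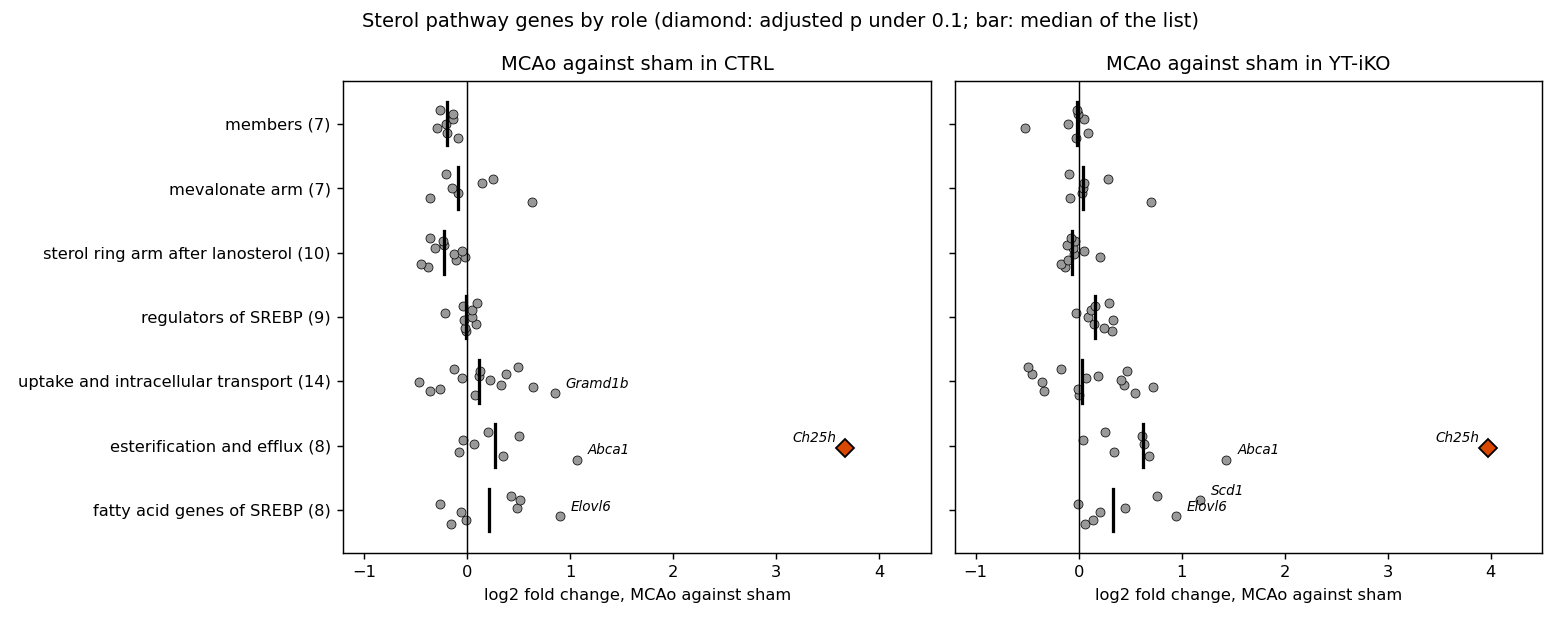
Log2 fold change for MCAo against sham (horizontal axes) of the members and of the other sterol genes by role, in CTRL on the left and YT-iKO on the right. Points are genes, diamonds those with an edgeR adjusted p under 0.1, and bars the median of each list. Ch25h stands apart at 3.67 and 3.97, and the medians of the members and of the sterol ring genes in CTRL lie at -0.20 and -0.23.

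**Figure D5:**
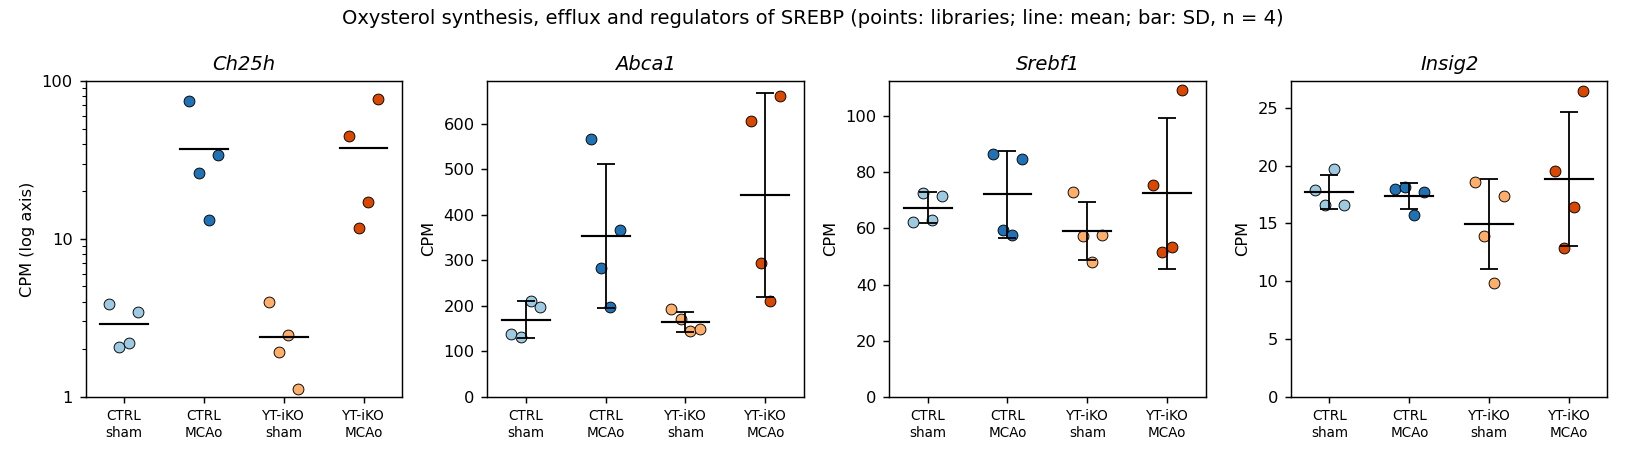
Levels in CPM of Ch25h (log axis), Abca1, Srebf1 and Insig2 (axes from 0) by group. Points are libraries and lines the mean of 4 libraries, with bars of 1 SD on the linear axes. The MCAo libraries of Ch25h, from 11.7 to 77.3 CPM, are all above the sham libraries, which reach 4.00 CPM. On this scale sham and MCAo libraries of Srebf1 and Insig2 overlap in both genotypes.

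The 9126 genes that averaged 10 CPM or more outside the list were ranked by how closely their log2(CPM + 1) followed the mean of the 7 members over the 16 libraries. Highest was Sc5d, a sterol desaturase of the last steps, with Pearson r of 0.96, followed by Myadm, Pmepa1, Erap1, Cldnd1, Gtf2i, Ptpn21, Fkbp3, Ocln and Mindy1, whose r lay between 0.95 and 0.94. All 16 points share the library scaling, and 106 genes exceeded an r of 0.9, so the ranking is a description. On the scale set by abundant genes, added after the data were seen, 0 genes exceeded 0.9, and the 10 most alike included Sc5d (r = 0.85), Slc5a3 (0.83), Map6 (0.83) and Msmo1, a sterol demethylase (0.82). Deviations from the group means gave Myadm as the closest (r = 0.98), with 1 of the 10 genes in common with the first ranking.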

How the data were processed

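Sorted bECs were sequenced from low-input SMART-Seq libraries without molecular identifiers. The authors mapped reads with STAR 2.7.8a to GRCm38 with GENCODE annotation, and the deposited table holds raw counts per gene, 1 column per library. The counting program, its use of strand and the filter on genes are not given in the sources used here. The members and lists were chosen with earlier results of these data known.

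Counts of 31085 genes that passed filterByExpr (minimum count 10, minimum total 15) were fitted with edgeR 4.0.16 (R 4.3.3) by quasi-likelihood with TMM factors and 4 groups in 1 model, with Benjamini-Hochberg adjustment over all of them. A gene was called at an adjusted p under 0.1. Nothing in the labels says which mice entered which pool, so p-values measure the spread between pools. Members were also tested on log2(CPM + 1) by permutation over all 70 assignments of libraries (exact, two-sided). Named in the text were the 7 members, Srebf1, Scap, Insig2, any listed gene called, the highest and lowest of each role list for MCAo against sham, and the 10 genes most like the members. Some genes that this rule names are not reported here. Exon lengths and positions came from GENCODE M21 (GRCm38). Alternatives were DESeq2 1.42.0, limma 3.58.1 (voom with quality weights), RLE factors, TMM factors from abundant genes, other filters, a threshold of 0.05, the 2 groups alone, a replicate block, the receptor background as a covariate, and each library left out. The model was run on simulated data with changes larger than those of the members. That run does not show how often changes as small as theirs would be missed.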

Additional observations from a re-analysis of the deposited data

Results flagged for a closer look

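Among the 11 genes Hmgcs1, Idi1, Fdft1, Sqle, Lss, Insig1, Srebf2, Ch25h, Srebf1, Scap and Insig2, each in 4 groups of 4 libraries, 1 of 44 sets of values had 1 library far from the other 3, where chance alone flags about 5% of sets. Lss in CTRL sham replicate 4 was at 15.5 CPM while the other libraries of that group lay between 19.1 and 19.5 CPM. The difference between genotypes in the response to MCAo was not called for any of these genes.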

How the results depend on the processing

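With 4 libraries per group, the 95% confidence intervals of the members' folds limit what can be seen, and the smallest exact permutation p is 0.0286. The count of 0 members called was kept in every comparison and setting, each library left out included, except that limma-voom called 2 of 7 for MCAo against sham in CTRL (Hmgcs1 and Srebf2). Ch25h was called in both genotypes in each setting. With each library left out in turn its log2 fold change ran from 3.13 to 3.91 in CTRL and from 3.36 to 4.26 in YT-iKO.

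Small values changed sign, none of them called. For YT-iKO against CTRL after sham, Lss was 0.013 with TMM factors from abundant genes (exact permutation p = 0.971). After MCAo, Lss was -0.00348 by DESeq2, -0.00400 with RLE factors and -0.027 without a filter. For MCAo against sham in YT-iKO, Lss was -0.00133 without a filter, -0.00347 in the fit of the 2 groups alone and -0.025 by limma-voom, Hmgcs1 was -0.27 by limma-voom, and Sqle had an exact permutation p = 0.800 with factors from abundant genes. For the interaction, Insig1 was -0.023 and Fdft1 -0.055 with factors from abundant genes, Insig1 -0.062 and Fdft1 -0.048 by limma-voom, and Fdft1 -0.045 with the receptor background as a covariate. The cause was not tested.

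With single libraries left out, signs changed for MCAo against sham in YT-iKO in Fdft1 (-0.19 to 0.067), Hmgcs1 (-0.099 to 0.19), Lss (-0.054 to 0.077), Sqle (-0.097 to 0.071) and Srebf2 (-0.22 to 0.078). They changed after MCAo between the genotypes in Hmgcs1 (-0.27 to 0.00079) and Lss (-0.086 to 0.089), and for the interaction in Fdft1 (-0.099 to 0.16) and Insig1 (-0.042 to 0.23). The number of genes called over all genes ran from 12 to 43 and from 11 to 47 for the genotype comparisons after sham and MCAo, and from 26 to 162 and from 37 to 203 for MCAo against sham in CTRL and YT-iKO.

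Libraries with the same replicate number had a median correlation of their deviations of 0.26, against -0.13 for libraries of different numbers, and 17 of 24 same-numbered pairs were above 0.1. The labels tie the numbers to no litter or day and not every pair was above 0.1, the rule used here for pairing, so the numbers were not taken as pairs, although same-numbered libraries deviated together more than others. With the replicate as a block, 0 of 7 members were called in each comparison, the sign of Sqle changed for MCAo against sham in YT-iKO (to 0.00142), and the genes called over all genes were 34 in YT-iKO against CTRL after MCAo and 119 in MCAo against sham in CTRL. In YT-iKO the block called 3 of the 56 other sterol genes for MCAo against sham in place of 1, adding Abca1 and Scd1.

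The count of the 56 other sterol genes called for MCAo against sham, 1 in each genotype, depended on the setting. In CTRL and YT-iKO it was 4 and 4 by DESeq2 (203 and 239 over all genes), 21 and 8 by limma-voom (7538 and 5626), 7 and 7 with the receptor covariate (798 and 648), 3 and 8 with factors from abundant genes (554 and 534) and 5 and 1 in the fit of the 2 groups alone (623 and 17). With RLE factors it was 1 and 3 (98 and 110), and with the CPM filter 1 and 3 (121 and 137). By limma-voom in YT-iKO, 14.3% of the 56 were called against 18.1% of all genes. With single libraries left out it ran from 1 to 2 in CTRL and from 1 to 3 in YT-iKO.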

Other observations

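Apoe, which encodes the apolipoprotein of the particles that carry cholesterol between brain cells, had the lowest fitted value among the 56 other sterol genes for YT-iKO against CTRL after sham, and was singled out after its values were seen. Its levels ranged from 297 to 466 CPM in CTRL sham and from 191 to 255 CPM in YT-iKO sham, without overlap, with a log2 fold change of -0.83 ± 0.27 that edgeR did not call (adjusted p = 0.990). It was called with TMM factors from abundant genes, in the fit of the 2 groups alone, by limma-voom and with the receptor background as a covariate. After MCAo the value for Apoe was -0.41 ± 0.27, and the groups, 282 to 498 CPM in CTRL and 184 to 404 CPM in YT-iKO, overlapped. Astrocytes are the main source of Apoe in brain. The sort selected CD31+ cells, but reads on markers of astrocytes and of pericytes and smooth muscle were still present. The 7 astrocyte markers summed to between 100.6 and 115 CPM in CTRL sham and between 64.0 and 87.7 CPM in YT-iKO sham. Most of that difference was Gja1, with means of 62.7 and 38.2 CPM. Of the 7 markers, 4 had lower means in YT-iKO sham and 3 had higher ones. Lower beside Gja1 were Slc1a3 (10.8 and 7.02 CPM), Slc1a2 (20.1 and 17.4 CPM) and Aldoc (3.51 and 3.23 CPM). Higher were Gfap (5.13 and 6.12 CPM), Aqp4 (2.07 and 2.18 CPM) and Aldh1l1 (2.90 and 4.53 CPM). The 8 markers of pericytes and smooth muscle summed to between 734 and 896 CPM in CTRL sham and between 543 and 834 CPM in YT-iKO sham. The part of these cells in the level of Apoe was not tested.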
